A study of Mus musculus with 7 samples.

Results

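Plasminogen activation was described through 4 genes, Serpine2, Plat, Plau and Plaur, out of 17784 genes listed across 7 single-cell libraries of C57BL/6 mouse cells. Plat encodes tissue-type plasminogen activator, Plau encodes urokinase, Plaur encodes the cell-surface receptor of urokinase, and Serpine2 encodes protease nexin-1, a serpin that inhibits both activators and thrombin. The genes were taken by name, and all 4 had a row in the data. They had been selected on their levels and shares of cells in these same libraries, so the levels and ratios below are descriptions.

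The study asked how far mouse donor cells take on an oligodendrocyte progenitor profile after viral delivery of transcription factors. MEF-2F and MEF-3F were embryonic fibroblasts transduced with Olig2 and Sox10, or with Olig2, Sox10 and Nkx6.2. PC-2F and PC-3F were primary cerebral pericytes given the same pairs or triplets of factors. The references were the donor cells with no treatment, MEF from embryo and PC from brain, and primary oligodendrocyte progenitor cells from brain (pOPC), also with no treatment. The converted cells and pOPC were kept in OPC medium, and the donor cells in fibroblast or pericyte medium, so factors and medium changed together between a converted library and its donor. Each population was 1 library of cells dissociated with trypsin-EDTA and captured in ddSEQ droplets, and the labels name no animals, lines or clones behind it.

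Plasmin is a broad protease that dissolves fibrin and cuts matrix and growth factor precursors. It is made from plasminogen when tissue-type activator or urokinase cuts it, urokinase acting mainly at the cell surface on its receptor. Serpins such as protease nexin-1 stop the activators by forming covalent complexes that are then cleared by endocytic receptors. In the brain, tissue-type activator is known from neurons, glia and vessels, and protease nexin-1 was first described as a factor released by glial cells that promotes neurite growth.

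The libraries held 161 MEF-3F, 82 MEF-2F, 147 PC-3F, 179 PC-2F, 131 MEF, 290 PC and 134 pOPC cells, and no barcode occurred in more than 1 library. Summed unique molecular identifiers (UMIs, each standing for a captured transcript) ran from 230322 for the MEF-2F library to 1293061 for the PC library, and the median cell held 1866 (MEF-3F) to 6259 UMIs (PC-2F). Levels are UMIs per 1000000 UMIs of the library (CPM), and their 95% intervals cover counting error only. With 1 library per population there is no replicate check and no test, and "called" below means a ratio of at least 2-fold whose counting interval excludes 1 in a gene that reached both 10 UMIs and 20 CPM in either library. The deposited values are codes from which UMI counts were inferred, and every level depends on that inference. Olig2 reached 329, 65.1, 88.1 and 191 CPM in MEF-3F, MEF-2F, PC-3F and PC-2F, against 0 UMIs in MEF and in PC and 1653 CPM in pOPC. An Olig2 UMI was found in 38.5%, 15.9%, 25.2% and 45.8% of cells in those converted libraries, against 93.3% in pOPC. Sox10 reached 244, 130, 216 and 251 CPM in MEF-3F, MEF-2F, PC-3F and PC-2F, against 12.7 CPM in MEF, 0 UMIs in PC and 590 CPM in pOPC.

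The labels of the donors were checked against markers of their cell types. MEF held all 7 fibroblast markers, and 4 of its cells carried 107 of the library's 115 UMIs of macrophage markers. PC held 5 of 8 pericyte markers, which summed to 416 CPM, against 601 CPM from 8 of 8 in MEF, and had no UMI of the other three, Rgs5, Kcnj8 and Abcc9. Its mesothelial and epithelial markers summed to 601 CPM, from 3 of 7 genes, with Krt8, Krt18, Upk3b and Epcam at 0, against 8.86 CPM in MEF, and it is called PC here by its label. In pOPC all 9 progenitor markers were present and fibroblast markers summed to 3.15 CPM. Xist, the X-inactivation transcript of female cells, had 61.1, 56.4, 29.9 and 22.5 CPM in MEF-3F, MEF-2F, PC-3F and PC-2F, against 1.27 CPM in MEF, 17.0 CPM in PC and 0 UMIs in pOPC. MEF-2F and MEF-3F thus differed from MEF in this transcript too, and its part in the results was not tested.

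In GRCm38 (mm10) coordinates, Serpine2 lies on the minus strand at chr1:79794197-79861180, Plat on the plus strand at chr8:22757727-22782844, Plau on the plus strand at chr14:20836660-20843385 and Plaur on the plus strand at chr7:24462484-24475968. No annotated gene overlaps any of them. Promoters of Serpine2 and Plaur are shown because these genes moved in opposite directions between donor and converted cells; 2 of the 4 genes matched the RefSeq promoter table (GRCm38.p6), and Plat and Plau are named only. The window is the 250 bases before the table's transcript start, read 5′ to 3′ on the gene's strand, at chr1:79858666-79858915 for Serpine2 and chr7:24462233-24462482 for Plaur. The Serpine2 window lies inside the gene span given above, downstream of its outermost annotated start at chr1:79861180. The sequence before that outermost start is not shown. Capitals mark matches to 5 motifs searched on both strands, the SOX core ACAAAG, an E-box written CAGCTG, other E-boxes written CATATG and CAGATG, and the AP-1 motif TGANTCA. None of the matches overlaps another.
Serpine2: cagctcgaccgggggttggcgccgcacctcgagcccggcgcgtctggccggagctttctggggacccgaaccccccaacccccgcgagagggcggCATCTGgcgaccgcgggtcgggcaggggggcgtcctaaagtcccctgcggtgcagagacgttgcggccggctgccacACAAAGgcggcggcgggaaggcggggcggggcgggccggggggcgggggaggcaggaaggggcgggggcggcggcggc
Plaur: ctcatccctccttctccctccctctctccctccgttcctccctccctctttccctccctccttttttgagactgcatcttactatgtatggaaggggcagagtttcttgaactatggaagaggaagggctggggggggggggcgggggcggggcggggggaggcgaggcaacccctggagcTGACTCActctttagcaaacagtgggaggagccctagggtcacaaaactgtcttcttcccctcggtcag

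In the Serpine2 window, inside the annotated gene, the SOX core starts 78 bases before the table's transcript start. There CAGATG is read on the opposite strand, as CATCTG, 155 bases before that start. In the Plaur window an AP-1 match starts 69 bases before the transcript start, and neither the SOX core nor an E-box of the 3 searched was found. Of 32851 promoter windows of this length, 16.5% held the SOX core, 14.4% held CAGATG, 13.0% held CAGCTG, 3.46% held CATATG and 6.75% held AP-1. Such matches are common in windows of this length and are given as letters, not as binding sites.

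Serpine2 was the member with the most UMIs in every converted library and stood far above both donors and above pOPC. Its level was 7724 CPM (7369 to 8091) in MEF-2F cells and 5519 CPM (5306 to 5738) in MEF-3F cells, against 690 CPM (633 to 750) in MEF. It was 5595 CPM (5462 to 5730) in PC-2F cells and 6014 CPM (5825 to 6208) in PC-3F cells, against 75.8 CPM (61.5 to 92.4) in PC. In pOPC it was 814 CPM (745 to 887). The 4 converted libraries therefore lay within a narrow band whichever donor they came from, while the donors were 9.10-fold apart (7.33 to 11.4, MEF over PC).

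**Figure D1:**
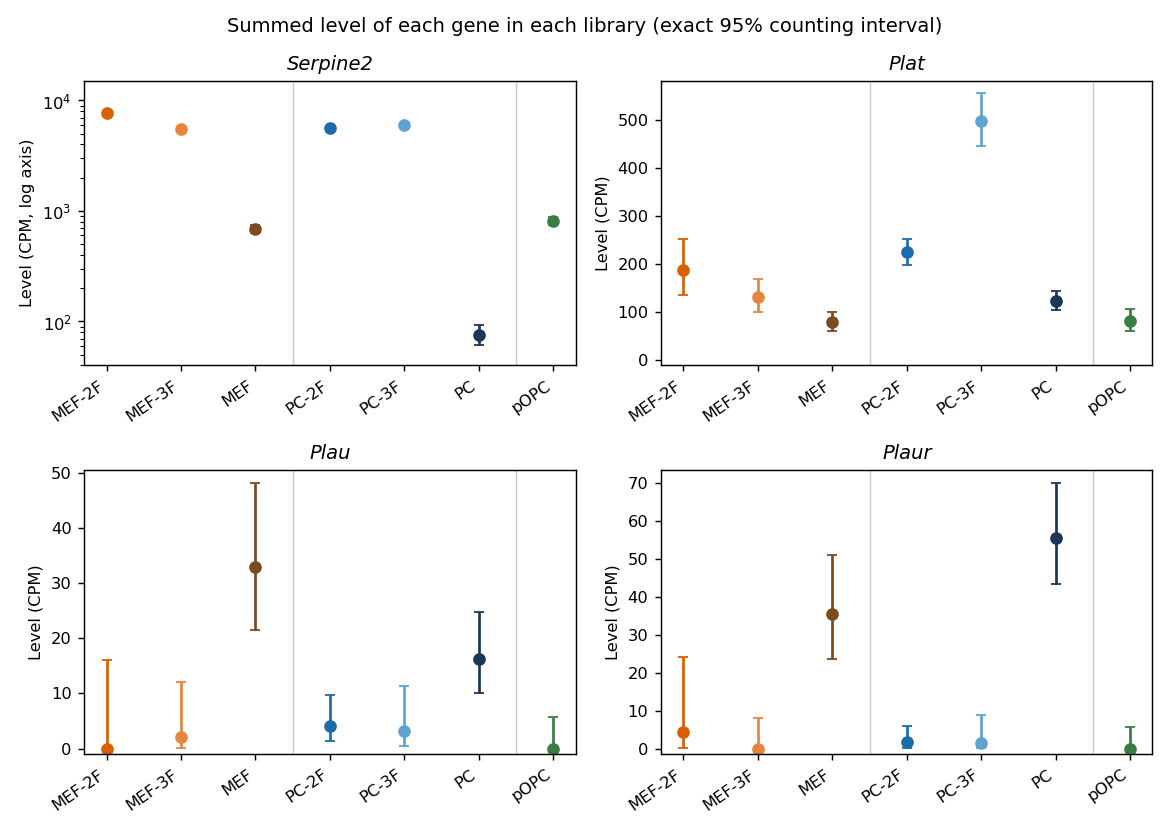
Level in CPM (y axis) of each of the 4 genes in each library (x axis), with exact 95% counting intervals; the Serpine2 axis is logarithmic and the other axes are linear. Serpine2 lies between 5519 and 7724 CPM in the 4 converted libraries and at 814 CPM or lower in MEF, PC and pOPC, Plat is highest in PC-3F at 499 CPM, and Plau and Plaur have more than 5 UMIs only in MEF and PC.

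The ratio over the donor was 11.2-fold (10.2 to 12.3) in MEF-2F and 8.0-fold (7.29 to 8.79) in MEF-3F. It was 73.8-fold (60.5 to 91.1) in PC-2F and 79.4-fold (64.9 to 98.0) in PC-3F. The larger ratios of the pericyte-derived cells went with the low level in PC, where the count rested on 98 UMIs and where cells whose barcodes form a separate block of the matrix held 3 UMIs, or 18.8 CPM, against 83.8 CPM in the remaining block. Against that smaller block alone, the log2 ratio was 8.0 for PC-2F and 8.10 for PC-3F, against 6.20 (PC-2F) and 6.30 (PC-3F) over all PC cells.

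Over pOPC, Serpine2 was 9.49-fold higher in MEF-2F (8.60 to 10.5), 6.78-fold higher in MEF-3F (6.17 to 7.47), 6.87-fold higher in PC-2F (6.28 to 7.53) and 7.39-fold higher in PC-3F (6.74 to 8.12). PC stood 10.7-fold lower than pOPC (8.64 to 13.5). MEF and pOPC were close, at 0.847-fold (0.750 to 0.958), and their order turned under TMM scaling, where the log2 ratio of MEF over pOPC was 0.16. Ranked by level, the libraries ran MEF-2F, PC-3F, PC-2F, MEF-3F, pOPC, MEF and PC, and the counting intervals overlapped between the neighbours PC-2F and MEF-3F and between pOPC and MEF. The addition of Nkx6.2 went with a ratio of 0.715-fold (0.672 to 0.760) in MEF-3F over MEF-2F and 1.08-fold (1.03 to 1.12) in PC-3F over PC-2F, both short of 2-fold.

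Large counts in single cells are the least certain part of the decoding, and Serpine2 is the member they touch. Counts whose decoding had a posterior probability over 0.99 held 74.6%, 65.5%, 87.1% and 71.8% of its UMIs in MEF-3F, MEF-2F, PC-3F and PC-2F, and all of them in MEF, PC and pOPC. The uncertain entries sat in 10 MEF-3F, 10 MEF-2F, 6 PC-3F and 14 PC-2F cells. From the sure entries alone the levels were 4118 CPM in MEF-3F, 5058 CPM in MEF-2F, 5240 CPM in PC-3F and 4014 CPM in PC-2F, and each was still above 814 CPM in pOPC and 690 CPM in MEF. The order among the converted libraries changed, with PC-3F above MEF-2F and MEF-3F above PC-2F.

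Nearly every converted cell carried the transcript. A Serpine2 UMI was found in 98.8% of MEF-2F cells, 98.8% of MEF-3F cells, 98.3% of PC-2F cells and 99.3% of PC-3F cells. The share was 67.2% in MEF, 11.7% in PC and 82.1% in pOPC. After each cell was thinned to 1000 UMIs, with shallower cells left out, the shares were 97.5%, 97.3%, 96.6% and 92.7% in MEF-3F, MEF-2F, PC-3F and PC-2F, against 39.5% in MEF, 5.24% in PC and 50% in pOPC. The donors and pOPC thus separated from the converted libraries at equal depth as well. No population here is known to lack Serpine2, and the 11.7% in PC, at a median of 3775 UMIs per cell, is the lowest share available as a background for free RNA in droplets.

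Within a converted library the amount per cell still varied widely. The 10th percentile, median and 90th percentile of Serpine2 UMIs per 10000 UMIs of the cell were 27.4, 68.0 and 132 in MEF-2F, and 21.6, 48.7 and 93.8 in MEF-3F. They were 10.3, 40.8 and 117 in PC-2F cells, while PC-3F cells had 27.5, 55.7 and 97.7. In MEF the median was 4.32 and the 90th percentile 15.4, in PC 0 and 1.4, and in pOPC 7.15 and 15.7. The 10th percentile of MEF-2F, MEF-3F and PC-3F lay above the 90th percentile of MEF, PC and pOPC, whereas the lower tail of PC-2F reached into the range of MEF and pOPC.

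**Figure D2:**
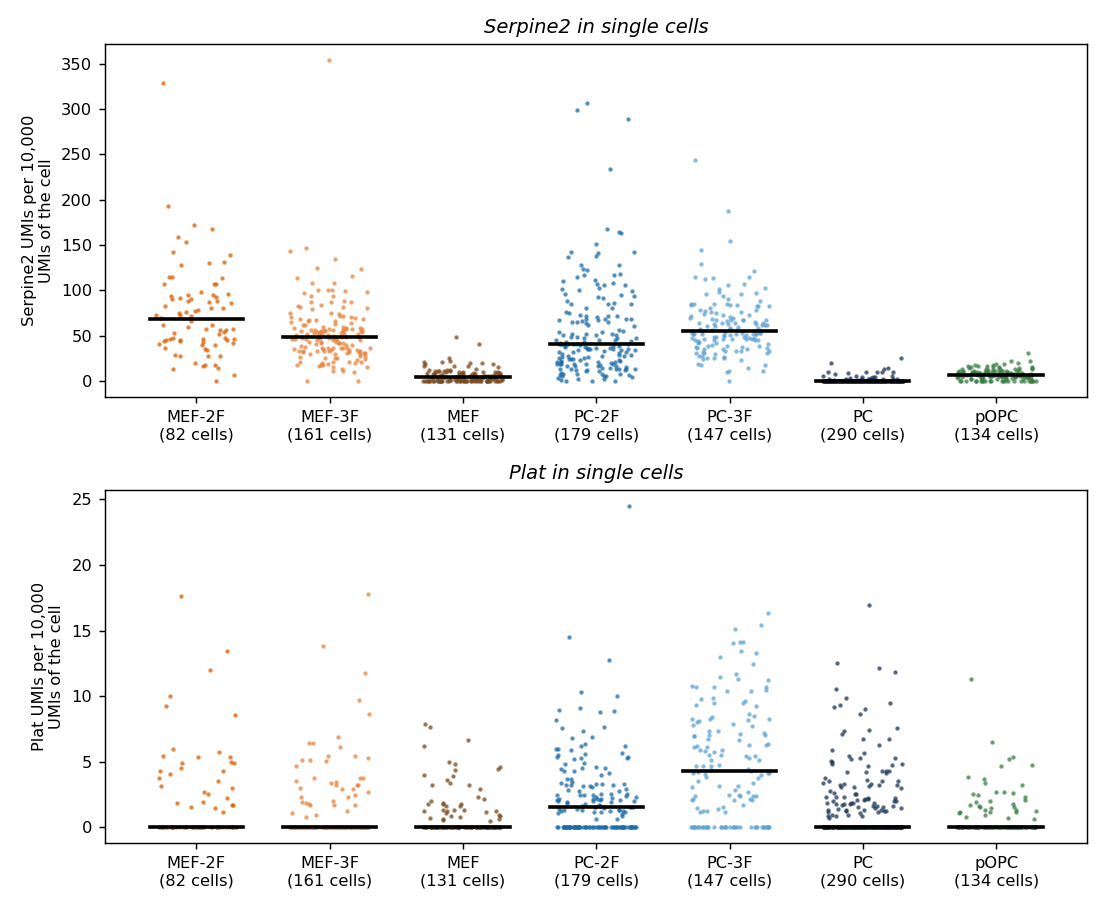
Serpine2 (upper panel) and Plat (lower panel) in single cells, as UMIs of the gene per 10000 UMIs of the cell (y axis), by library (x axis); each point is 1 cell, points are spread sideways at random, and the black line is the median. The medians of Serpine2 are 40.8 to 68.0 in the converted libraries, against 4.32 in MEF, 0 in PC and 7.15 in pOPC, and the median of Plat is above 0 only in PC-2F (1.54) and PC-3F (4.31).

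Schwann and neural crest markers were also higher in the converted libraries. Of 9 such markers, 9 were found in MEF-3F, 8 in MEF-2F, 6 in PC-3F and 9 in PC-2F, with sums from 2120 to 5601 CPM. Cdh19 was at 0 in MEF-2F, and Ngfr, Foxd3 and Cdh19 were at 0 in PC-3F. The list includes Sox10, a delivered factor. The sums were 377 CPM in MEF (7 markers, with Cdh19 among those at 0), 270 CPM in PC (3 markers, with Ngfr, Foxd3, Gap43, Sox10 and Erbb3 among those at 0) and 1319 CPM in pOPC (5 markers, with Ngfr, Foxd3 and Cdh19 among those at 0). Clusters made without the 4 genes separated a group of cells with Ednrb, Egfl8, Reln and Foxd3 among its leading genes in MEF-2F and MEF-3F from a group led by Col2a1, Cytl1, Col11a2, Gpc3 and Smoc2. Serpine2 was at 7132 CPM in the Ednrb cells and 8371 CPM in the Col2a1 cells of MEF-2F, and at 5143 and 5588 CPM in those of MEF-3F, so its level was not lower in the Col2a1 cells.

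Pericyte-derived cells fell into other groups. In PC-2F, 139 cells were in a cluster led by Lcn2, Serpina3n, Enpp2, Fcgr2b and Car6, with Serpine2 at 5175 CPM, and 39 cells in a cluster led by Mmp3, Ccl11, Ccl2, Dcn and Ccl7, with Serpine2 at 7077 CPM. In PC-3F, 112 cells were in a cluster with Igfbp2, Clca2, Sema3b and Tmem132b among its leading genes, with Serpine2 at 6245 CPM, and 30 cells in the Mmp3 cluster, with Serpine2 at 4926 CPM. Every sizeable cluster of converted cells thus stood at 4926 CPM or more, and the Mmp3 cells were the higher group in PC-2F cells and the lower group in PC-3F cells. Cells with and without a UMI of the delivered factor Sox10 did not differ in a single direction, at 5807 and 5271 CPM in PC-2F, 6567 and 5522 CPM in PC-3F, 5249 and 5757 CPM in MEF-3F, and 4439 and 8656 CPM in MEF-2F. A Sox10 UMI is found more readily in deep cells, so this split also sorts cells by depth.

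**Figure D3:**
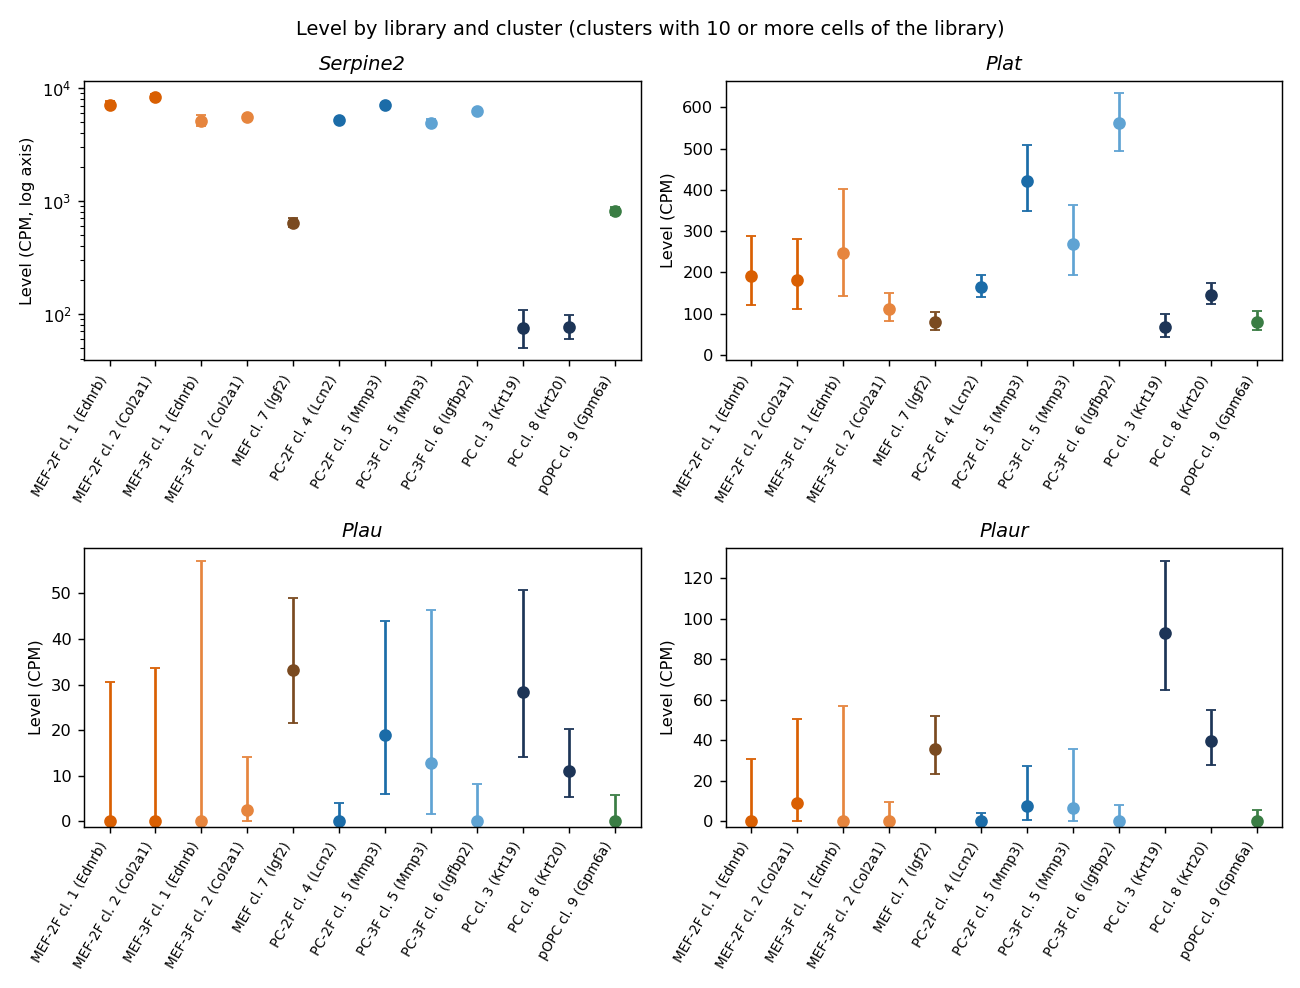
Level in CPM (y axis, logarithmic for Serpine2) of each gene in each library and cluster holding at least 10 cells of that library (x axis, with one of the cluster's leading genes), with exact 95% counting intervals. Serpine2 is at 4926 CPM or more in all clusters of converted cells, Plat splits the clusters of PC-2F and PC-3F, and Plau and Plaur are at 0 in the Lcn2 cells of PC-2F and the Igfbp2 cells of PC-3F.

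In the donors, the level of Serpine2 was close in both PC clusters, 74.8 CPM in the cells led by Krt19 and 76.2 CPM in those led by Krt20. In MEF, 120 cells of the cluster led by Igf2, Tagln and Acta2 had 640 CPM. Another 3 MEF cells fell into the Mmp3 cluster together with the pericyte-derived cells, and all 3 had Sox10 UMIs although the library is labelled untreated. They held 63 of the 545 Serpine2 UMIs of MEF, at 3246 CPM (2494 to 4153). Without the Mmp3 cluster the log2 ratio of Serpine2 was 3.63 in MEF-2F over MEF and 3.14 in MEF-3F over MEF, against 3.48 for MEF-2F and 3.00 for MEF-3F with it.

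Plat, the tissue-type activator, was present in all 7 libraries and was highest in PC-3F. Its level was 187 CPM (135 to 251) in MEF-2F cells and 131 CPM (99.9 to 168) in MEF-3F, against 78.5 CPM (60.2 to 101) in MEF. It was 224 CPM (198 to 253) in PC-2F cells and 499 CPM (445 to 557) in PC-3F cells, against 122 CPM (104 to 143) in PC. In pOPC it was 80.4 CPM (59.9 to 106). From PC-2F downwards, in the order MEF-2F, MEF-3F, PC, pOPC and MEF, each library overlapped its neighbour within the counting intervals, and PC-3F alone stood clear.

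Of the 4 ratios of Plat over a donor, 2 were called. PC-3F was 4.08-fold above PC (3.36 to 4.97), and MEF-2F was 2.38-fold above MEF (1.57 to 3.57). The second lost its call under TMM scaling, at a log2 ratio of 0.97, and after thinning to 1000 UMIs, at 0.78, against 1.26 as reported. MEF-3F over MEF, at 1.67-fold (1.15 to 2.42), and PC-2F over PC, at 1.84-fold (1.5 to 2.25), stayed below 2-fold. Over pOPC, Plat was 2.32-fold higher in MEF-2F (1.51 to 3.55), 2.79-fold higher in PC-2F (2.06 to 3.84) and 6.20-fold higher in PC-3F (4.60 to 8.51), while MEF-3F had a ratio of 1.63-fold (1.10 to 2.41).

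Between the converted libraries of the same donor, Plat was 2.22-fold higher in PC-3F than in PC-2F (1.88 to 2.63) and 0.701-fold in MEF-3F over MEF-2F (0.466 to 1.06). The difference in PC-derived cells ran through the clusters unevenly. In PC-2F, the Mmp3 cells had 422 CPM (348 to 508) and the Lcn2 cells 165 CPM (140 to 193). In PC-3F, the Mmp3 cells had 269 CPM (194 to 364) and the Igfbp2 cells 561 CPM (494 to 634). Within the Mmp3 cluster the order of PC-3F and PC-2F was thus the opposite of that over all cells, and without that cluster the log2 ratio of PC-3F over PC-2F was 1.77, against 1.15 with it. PC-2F cells without a Sox10 UMI also had more Plat, 347 CPM, than those with one, 144 CPM.

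The share of cells with a Plat UMI was 26.7% in MEF-3F, 39.0% in MEF-2F, 73.5% in PC-3F and 60.9% in PC-2F, against 32.1% in MEF, 34.1% in PC and 26.9% in pOPC. At 1000 UMIs per cell the shares were 10.7%, 14.7%, 34.2% and 17.4% in those 4 converted libraries, against 7.75% in MEF, 10.9% in PC and 6.03% in pOPC. The high share in PC-2F, the deepest library, came close to those of shallower libraries after thinning, and PC-3F remained at the top. Among the donors, the Krt20 cells of PC had 146 CPM (122 to 173) and its Krt19 cells 67.1 CPM (43.8 to 98.3).

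Plau and Plaur, urokinase and its receptor, were found in the donors and were at the edge of detection in all 4 converted libraries. Plau had 1 UMI in MEF-3F, 0 in MEF-2F, 2 in PC-3F and 5 in PC-2F, against 26 in MEF, 21 in PC and 0 in pOPC. Plaur had 0 UMIs in MEF-3F, 1 in MEF-2F, 1 in PC-3F and 2 in PC-2F, against 28 in MEF, 72 in PC and 0 in pOPC. By UMI count, the converted libraries and pOPC all lay below both donors for either gene. In CPM, the counting intervals of Plau in MEF-2F, MEF-3F and PC-3F overlapped that in PC, and the interval of Plaur in MEF-2F overlapped that in MEF.

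In CPM, Plau stood at 32.9 (21.5 to 48.2) in MEF and 16.2 (10.1 to 24.8) in PC, and Plaur at 35.4 (23.5 to 51.2) in MEF and 55.7 (43.6 to 70.1) in PC. Plau was at least 2.53-fold lower in MEF-2F than in MEF, with the converted library set at 3 UMIs, and 15.1-fold lower in MEF-3F (2.48 to 618). Plaur was 8.16-fold lower in MEF-2F (1.35 to 334) and at least 5.42-fold lower in MEF-3F, again with 3 UMIs in place of 0. Plaur was 33.4-fold lower in PC-2F than in PC (8.92 to 281) and 35.4-fold lower in PC-3F (6.15 to 1417). Plau in PC was below the 20 CPM needed for a call, and its ratios over PC were 0.257-fold in PC-2F (0.0756 to 0.699) and 0.194-fold in PC-3F (0.0220 to 0.793).

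A Plau UMI was seen in 14.5% of MEF cells and 6.90% of PC cells, and a Plaur UMI in 16.0% of MEF cells and 20% of PC cells. In pOPC, a brain population with 0 of 134 cells for both genes at a median of 3961.5 UMIs per cell, a count of 0 allows a share of up to 2.24%. The shares in the converted libraries were 0% to 1.36%, with at most 2 cells for either gene. All 7 Plau UMIs and all 3 Plaur UMIs of PC-2F and PC-3F lay in cells of the Mmp3 cluster, which carries Dcn and Lum, 2 of the 7 fibroblast markers, among its 10 leading genes. Among the Mmp3 cells of PC-2F, 2 of 39 had Plau, and 1 of them held 4 of the 5 UMIs. For PC-3F it was 2 of 30 Mmp3 cells. From these few cells, the PC-2F level was 18.8 CPM with an interval of 6.12 to 43.97. The PC-3F level was 12.8 CPM with an interval of 1.55 to 46.3. Plau was seen in 0 of 139 Lcn2 cells and 0 of 112 Igfbp2 cells.

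Urokinase and its receptor were counted together in single donor cells. In MEF, 6 cells had both, of 19 with Plau and 21 with Plaur, so 31.6% of the cells with Plau had Plaur, against 16.0% of all MEF cells. In PC, 5 cells had both, of 20 with Plau and 58 with Plaur, so 25% of the cells with Plau had Plaur, against 20% of all PC cells. Cells with both had a median of 17771.5 UMIs in MEF and 5769 in PC. Cells with either had a median of 6952 UMIs in MEF and 6437 in PC, against 3783 in MEF and 3094 in PC for cells with neither. Depth thus moved with detection, and its part was not tested. Macrophages are known to express both genes. In MEF the 4 cells with at least 2 macrophage markers held 1 Plaur UMI and 0 Plau UMIs, and the 7 cells with 1 marker held 4 of each. The 120 cells with no macrophage marker held 23 of 28 Plaur UMIs and 22 of 26 Plau UMIs. In CPM, Plaur was at 95.8 (2.42 to 534), 63.0 (17.2 to 161) and 32.1 (20.4 to 48.2) in the same order. Plau was at 0 (0 to 353), 63.0 (17.2 to 161) and 30.7 (19.2 to 46.5). The part of macrophages in these counts was not tested. In PC, Plaur was at 92.9 CPM (65.0 to 129) in the Krt19 cells, whose leading genes include the mesothelial and epithelial markers Krt19 and Msln, and 39.8 CPM (27.8 to 55.0) in the Krt20 cells, which are led by Krt20, another gene of that list.

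The members' calls over a donor were read against all measured genes without drawing on the comparison. In MEF-2F over MEF, 2 of the 4 were called higher and 2 lower, where 19.0% of 7542 measured genes were called higher and 14.6% lower. In MEF-3F over MEF, 1 was called higher and 2 lower, where the shares were 23.6% and 12.7% of 8546 genes. In PC-2F over PC, 1 of the 3 measured members was called higher and 1 lower, where the shares were 17.7% and 12.8% of 8341 genes. In PC-3F over PC, 2 of 3 were called higher and 1 lower, where the shares were 18.8% and 15% of 8397 genes. Under TMM scaling the ratios over MEF shifted by -0.29 in MEF-2F and -0.28 in MEF-3F, and the higher genes made up 39.9% of all called genes in MEF-2F and 48.4% in MEF-3F, against 56.5% and 64.9% as reported. The members' own directions over the donor were the same under that scaling.

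Over pOPC, Serpine2 and Plat were the only members measured in the converted libraries. Plau and Plaur had 0 UMIs in pOPC and too few in the converted cells, so neither could be called lower. Of the 2 measured members, both were called higher in PC-2F, in PC-3F and in MEF-2F. In MEF-3F only Serpine2 was called higher, and 0 of the measured members were called lower in any of these libraries. The shares of all measured genes called higher and lower there were 18.3% and 24.9% for MEF-2F, 20% and 19.4% for MEF-3F, 19.9% and 21.1% for PC-2F, and 19.0% and 21.8% for PC-3F. Scaling by TMM turned the balance of all called genes over pOPC in 4 libraries, with higher genes making up 61.8% of them in PC-2F, 58.6% in PC-3F, 53.8% in MEF and 57.4% in PC, against 48.6%, 46.5%, 37.6% and 42.7% in the same order as reported. In MEF over pOPC, Plau and Plaur were called higher, at least 6.95-fold and at least 7.49-fold, and 0 members lower, where 19.5% of genes were called higher and 32.3% lower. In PC over pOPC, Plaur was called higher, at least 11.8-fold, where 20.6% of genes were, and Serpine2 lower, where 27.6% were. In MEF over PC, Serpine2 and Plau were called higher and 0 members lower, where the shares were 15.9% and 20.5%. The ratio of Plau was 2.03-fold (1.10 to 3.79), close to the 2-fold needed, and its log2 value was 0.25 over the smaller block of PC alone, against 1.01 over all PC cells. Between libraries of the same donor, Plat was called higher in PC-3F over PC-2F, where 5.08% of genes were called higher and 5.98% lower. Neither Serpine2 nor Plat was called in MEF-3F over MEF-2F, where 9.36% were called higher and 7.01% lower. Plau and Plaur were not measured in these pairs.

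The wider plasminogen system was followed through 32 genes, of which 27 were listed in at least 1 library. Plasminogen itself (Plg), the plasmin inhibitor Serpinf2, Cpb2, Serpina5 and vitronectin (Vtn) had no row anywhere. Leaving out the 4 members, 4 genes were called higher and 7 lower of 18 measured in MEF-2F cells, and 2 higher and 6 lower of 18 in MEF-3F cells, over MEF. Over PC, 4 were called higher and 8 lower of 16 measured in PC-2F cells, while in PC-3F cells 17 were measured, 4 of them called higher and 8 lower. The background for these counts was the set of all measured genes. For MEF-2F it had 19.0% higher and 14.6% lower calls, and for MEF-3F 23.6% higher and 12.7% lower calls. For PC-2F the calls were 17.7% higher and 12.8% lower, while PC-3F had 18.8% higher and 15% lower. The median log2 ratio over the donor of the list without the members was -0.49 in MEF-3F, -0.17 in MEF-2F, -0.77 in PC-3F and -1.05 in PC-2F. The median over all measured genes was 0.27 in MEF-3F and 0.05 in the other converted libraries. With genes at 0 UMIs set at 3 UMIs, the list's medians were -0.52, -0.18, -0.79 and -1.06 in the same order.

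**Figure D4:**
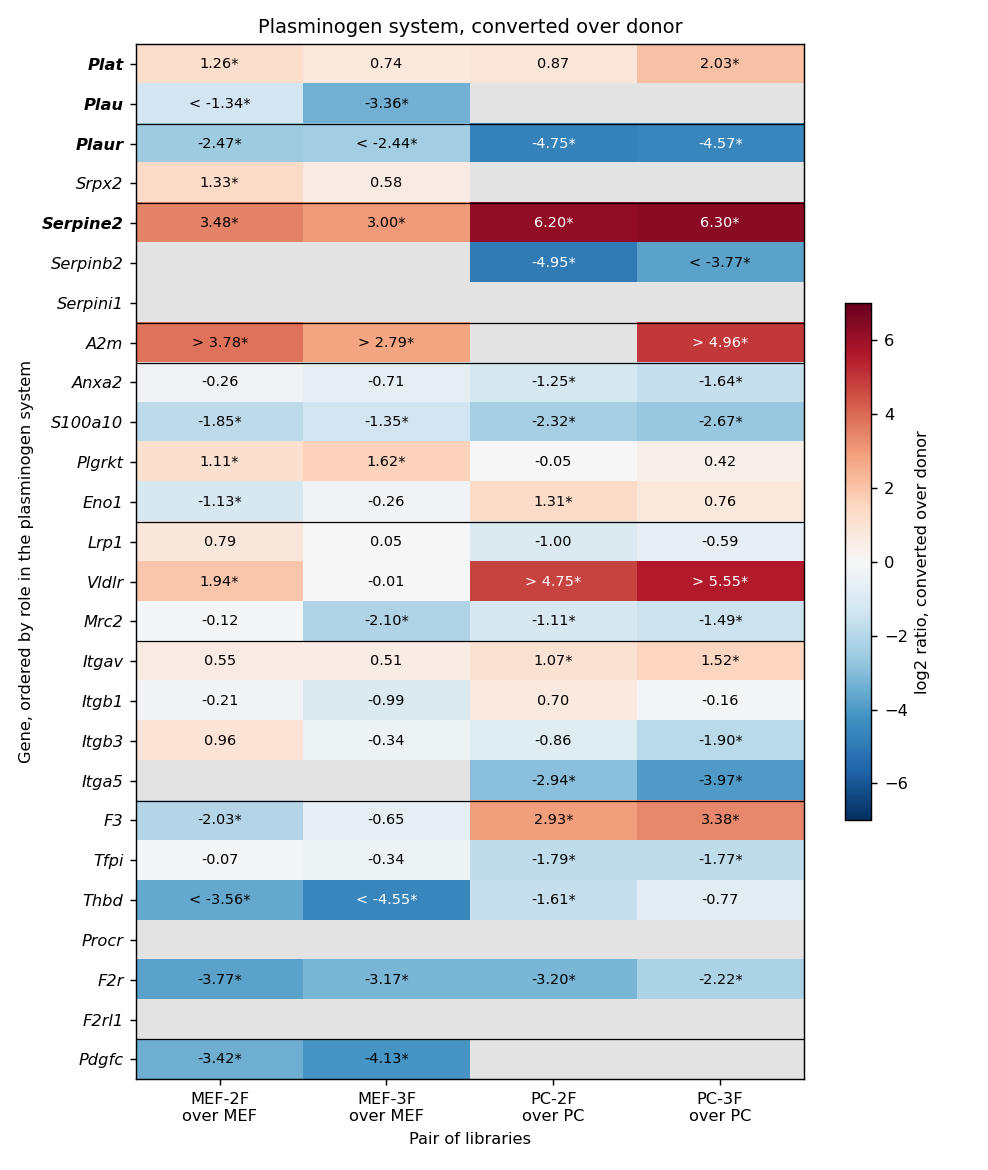
Log2 ratio of converted over donor library (colour and number) for 26 of the 27 listed genes of the plasminogen system (rows, ordered by role, Serpine2, Plat, Plau and Plaur in bold) in 4 pairs of libraries (columns); 0.5 UMIs were added per library, an asterisk marks a call, a sign before the number marks a bound with 3 UMIs in place of 0, and grey marks a pair in which the gene was not measured. Serpine2 is called higher in all 4 pairs, and Plaur, S100a10 and F2r are called lower in all 4. Other genes, such as Plat and Anxa2, have ratios of the same sign in all 4 pairs without a call in each.

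Among the inhibitors of the activators, Serpine2 was the only listed gene that was called higher in any converted library over its donor. Serpinb2, plasminogen activator inhibitor-2, had 2 UMIs in PC-2F cells and 0 in PC-3F cells, against 83 UMIs or 64.2 CPM in PC, and was 38.5-fold lower in PC-2F (10.3 to 323) and at least 13.6-fold lower in PC-3F. Neuroserpin (Serpini1) had at most 20 UMIs in any library and was not measured over a donor. Those 20 UMIs were in PC-2F cells, where the level of 16.7 CPM fell below the 20 CPM cut. PC-3F cells had 6 UMIs and PC had 0. With PC set at 3 UMIs, the ratios over PC were at least 7.19-fold (PC-2F) and 4.07-fold (PC-3F). MEF-2F cells had 2 UMIs of this gene and MEF-3F cells 0, against 8 in MEF. Serpine2 was the listed inhibitor of the activators with the most UMIs in all 4 converted libraries, and also in MEF, PC and pOPC. In PC it had 98 UMIs, against the 83 of Serpinb2.

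Annexin A2 and S100A10 form a surface complex that binds plasminogen and tissue-type activator. S100a10 was called lower in all 4 converted libraries, at 3.64-fold (2.75 to 4.91) in MEF-2F, 2.56-fold (2.14 to 3.08) in MEF-3F, 4.99-fold (4.48 to 5.58) in PC-2F and 6.37-fold (5.42 to 7.54) in PC-3F. Anxa2 was called lower in PC-2F, at 1049 CPM, and PC-3F, at 798 CPM, against 2489 CPM in PC. It had 1181 CPM in MEF-2F cells and 864 CPM in MEF-3F cells, against 1412 CPM in MEF. In pOPC, Anxa2 had 4.73 CPM and S100a10 88.3 CPM. Plgrkt, a plasminogen receptor of the cell membrane, was called higher in MEF-2F (2.13-fold) and MEF-3F (3.09-fold, 1.93 to 5.05), and the call in MEF-2F had an interval of 1.11 to 3.97 and was lost under TMM scaling, at a log2 ratio of 0.82. Eno1, an enolase that also binds plasminogen at the surface and has a near-identical copy in the mouse genome that could share its reads, had 204 CPM in MEF-2F cells and 375 CPM in MEF-3F cells, against 451 CPM in MEF, and 362 CPM in PC-2F cells and 245 CPM in PC-3F cells, against 145 CPM in PC.

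Endocytic receptors clear the serpin complexes. Vldlr had 62.5 CPM in PC-2F cells and 109 CPM in PC-3F cells, against 0 UMIs in PC, or at least 26.9-fold (PC-2F) and 46.8-fold (PC-3F) higher. It had 78.2 CPM in MEF-2F cells and 19.6 CPM in MEF-3F, against 20.2 CPM in MEF. Lrp1, the receptor best known for this role, was called in no converted library over its donor as reported. In PC-2F over PC its log2 ratio of -1.0 lay at the cut, and it was called lower under TMM scaling, at -1.03. Lrp1 had 414, 690, 636 and 478 CPM in MEF-3F, MEF-2F, PC-3F and PC-2F, against 401 CPM in MEF and 957 CPM in PC. A2m, a broad inhibitor that traps plasmin, had 12 UMIs in MEF-2F cells and 12 in MEF-3F cells, against 0 in MEF, and 6 in PC-2F cells and 46 in PC-3F cells, against 0 in PC.

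Thrombin is another target of protease nexin-1, and its receptor gene F2r was called lower in all 4 converted libraries. F2r had 26.1 CPM in MEF-2F cells and 41.4 CPM in MEF-3F, against 383 CPM in MEF, and 16.7 CPM in PC-2F and 33.0 CPM in PC-3F, against 157 CPM in PC. Thrombomodulin (Thbd), a thrombin-binding surface protein, had 0 UMIs in MEF-2F cells and in MEF-3F cells, against 121 UMIs in MEF, or at least 11.8-fold (MEF-2F) and 23.4-fold (MEF-3F) lower. Tissue factor (F3), which starts coagulation, went opposite ways by donor. It was 4.22-fold lower in MEF-2F than in MEF (2.5 to 7.67) and had 175 CPM in MEF-3F, against 275 CPM in MEF, while it was 7.74-fold higher in PC-2F (5.19 to 11.9) and 10.5-fold higher in PC-3F (6.99 to 16.4) than in PC. Pdgfc, a growth factor precursor that tissue-type activator cuts, had 17.4 CPM in MEF-2F cells and 10.9 CPM in MEF-3F, against 209 CPM in MEF.

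The files listed 31 genes whose symbol starts with Serpin, and 6 of them reached 100 CPM in a library. Serpina3n, an acute-phase serpin of glial and other cells, had 278 CPM in MEF-2F cells and 390 CPM in MEF-3F cells, against 7.59 CPM in MEF, and 5275 CPM in PC-2F cells and 2651 CPM in PC-3F cells, against 10.8 CPM in PC. It had 0 UMIs in pOPC, where Serpine2 had 814 CPM, and its close relatives in the mouse genome could share its reads. Serpinb6a was called lower over the donor in all 4 converted libraries, by 3.85-fold to 5.22-fold, with the same limit from close relatives. Serpinf1 was called lower in MEF-2F (20.8-fold) and MEF-3F (12.8-fold). Serpinh1, a collagen chaperone that inhibits no protease, had 2306, 5084, 3022 and 2476 CPM in MEF-3F, MEF-2F, PC-3F and PC-2F, against 2922 CPM in MEF, 1579 CPM in PC and 1.58 CPM in pOPC, and was called in no converted library over its donor. Of these 6 genes, Serpine2 and Serpina3n were called higher in all 4.

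**Figure D5:**
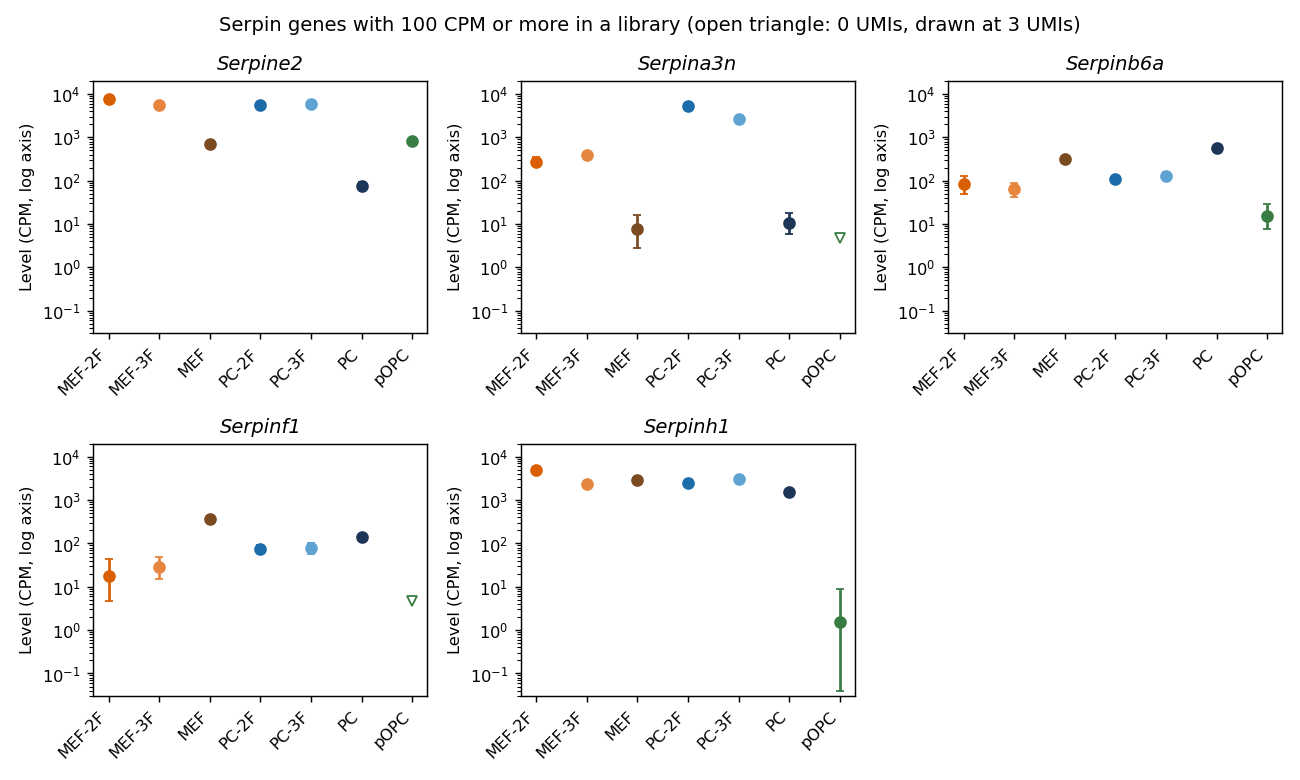
Level in CPM (y axis, logarithmic) of 5 of the 6 serpin genes that reached 100 CPM in a library, by library (x axis), with exact 95% counting intervals; an open triangle marks 0 UMIs and is drawn at 3 UMIs. Serpine2 and Serpina3n are higher in the 4 converted libraries than in their donors, and Serpina3n has 0 UMIs in pOPC.

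Genes were ranked by how closely their log2(CPM + 5) followed each member over the 7 libraries, among 3963 or 3964 genes with at least 100 CPM in a library. The 7 points are single libraries of differing depth, 4 of them converted cells, so the correlations are descriptions. Nearest to Serpine2 were Aplp2 and Lama4 (Pearson r = 0.99 for both), followed by Slc44a1, Col11a1 and Rnf130 (0.97 for each). Lama4, a laminin chain, had 137, 247, 253 and 224 CPM in MEF-3F, MEF-2F, PC-3F and PC-2F, against 53.2 CPM in MEF, 9.28 CPM in PC and 53.6 CPM in pOPC. Nearest to Plat were Tjp1 (0.96), Sgcb, Snx1, C4b and Eif2ak3 (0.93 to 0.94). Nearest to Plau were P4ha3 (0.99), Pck2, Gemin7, Lox and Loxl2, of which P4ha3, Lox and Loxl2 encode enzymes that modify collagen. Lox had 15.3, 0, 25.2 and 5.83 CPM in MEF-3F, MEF-2F, PC-3F and PC-2F, against 2473 CPM in MEF, 333 CPM in PC and 3.15 CPM in pOPC. Nearest to Plaur were Flt1 (0.98), Efnb2, Gpx1, Msn and Rab21.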

How the data were processed

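The 4 genes, the lists and the comparisons were chosen with earlier results of these data known. Per the submitters' processing notes, STAR 2.5.3a, featureCounts 1.6.1 of Subread, UMI-tools 0.5.3, bcl2fastq 2.19.1.403 and the mm10 genome were used; roles and order are not given in the sources used here. The values the authors deposited (unit: other) are whole-number codes rather than counts. Each code was read as the place, from 0, of a UMI count in a text-sorted list of the counts that occur, in each block of barcodes by itself (3 libraries, MEF-3F, MEF-2F and PC, join 2 blocks), and the most probable count was taken. No label states this reading, and the design had assumed counts. Counts with a posterior probability over 0.99 held 91.9% to 98.46% of UMIs per block. On data simulated under the same reading, 99.845% to 99.985% of non-zero entries came back exact, and gene sums were off by at most 32.41% (pOPC).

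Of 1140 barcodes, the 1124 with 500 or more UMIs, less than 20% of them mitochondrial, were kept, and no doublet caller was run. A gene without a row in a library was read as 0 UMIs. UMIs were summed per library. Levels carry exact Poisson intervals, ratios exact conditional binomial intervals and shares Clopper-Pearson intervals, all at 95%; UMIs of a cell are not independent, so they cover counting error only. Log2 ratios add 0.5 UMIs per library. A zero was set at 3 UMIs for a bound, 2.32 CPM (PC) to 13.0 CPM (MEF-2F). Named genes were the 4 members, the 32-gene pathway list, serpin genes at 100 CPM or more, the 5 genes nearest each member, the 5 leading genes of a cluster, the markers of the cell types, Olig2, Sox10 and Xist; Xist was added after the data were seen. A few genes that these rules name are not reported here; counts and sums over the lists include them. Cells were clustered with scanpy 1.11.5 without the 4 genes. Alternatives covered barcode filters, decoding, depth, blocks, scaling and call thresholds. Coordinates come from the GENCODE annotation of GRCm38.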

Additional observations from a re-analysis of the deposited data

Results flagged for a closer look

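Serpine2 and Plat were checked for the ratio of 3 over 2 factors. The pathway list was checked over the donor, for genes whose counting interval excludes 1 in every pair. By these rules, 3 genes had ratios of opposite signs in the libraries from fibroblasts and in those from pericytes. Genes outside the rules, such as Eno1 over the donor and Vldlr between 3 and 2 factors, also had opposite signs. For Serpine2, the log2 ratio of the library with 3 factors over that with 2 factors was -0.49 in MEF-derived cells and 0.10 in PC-derived cells. For Plat, the same log2 ratio was -0.52 in MEF-derived cells and 1.15 in PC-derived cells. For F3, the log2 ratio over the donor was -2.03 in MEF-2F and -0.65 in MEF-3F, against MEF, and 2.93 in PC-2F cells and 3.38 in PC-3F cells, against PC. Each rests on 1 library per population, and the difference between the donors was not tested. The ratio of F3 in MEF-3F, the ratio of Plat in MEF-derived cells and both ratios of Serpine2 are below 2-fold, and the counting interval of Plat in MEF-derived cells, 0.466-fold to 1.06-fold, includes 1.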

How the results depend on the processing

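Of 448 alternative values of 40 ratios, 0 reversed a called direction, 411 stayed within the counting interval of the reported value and 37 moved beyond it. The cause of these moves was not tested unless stated. Leaving out uncertain counts, added after seeing the data, gave log2 ratios of Serpine2 of 2.85 (MEF-2F) and 2.54 (MEF-3F) over MEF, 5.74 in PC-2F over PC, 2.33, 2.65, 2.69 and 2.31 in MEF-3F, MEF-2F, PC-3F and PC-2F over pOPC, -0.32 in MEF-3F over MEF-2F and 0.38 in PC-3F over PC-2F; this setting removes the highest counts. Thinning to 1000 UMIs gave 3.69 (MEF-2F) and 3.15 (MEF-3F) over MEF, 2.95 (MEF-3F), 3.48 (MEF-2F), 3.06 (PC-3F) and 3.01 (PC-2F) over pOPC, and 0.04 in PC-3F over PC-2F. TMM scaling gave 3.20 (MEF-2F) and 2.72 (MEF-3F) over MEF, and 3.04 (PC-2F), 3.11 (PC-3F), 0.16 (MEF) and -3.08 (PC) over pOPC. Equal weight for every cell gave 3.66 (MEF-2F) and 3.20 (MEF-3F) over MEF. The second block of MEF-2F alone gave 3.64 over MEF, 3.40 over pOPC and -0.64 in MEF-3F over MEF-2F. The first block of PC alone gave 8.0 in PC-2F and 8.10 in PC-3F over PC and -5.22 in PC over pOPC, and, in alternatives added after seeing the data, 4.98 in MEF over PC. Without the Mmp3, Ccl11 and Dcn cluster, also added after seeing the data, Serpine2 had 3.63 (MEF-2F) and 3.14 (MEF-3F) over MEF and 0.30 in PC-3F over PC-2F, Plat had 0.46 in PC-2F over PC and 1.77 in PC-3F over PC-2F, and Plau had -4.96 in PC-2F over PC. The pathway list had 1 member higher in MEF-2F over MEF after thinning, where fewer genes were measured. At 4-fold with an interval beyond 2-fold it had 2 higher and 5 lower in MEF-2F over MEF, 3 higher and 5 lower in PC-2F over PC and 5 lower in PC-3F over PC. Plau and Plaur rest on 0 to 5 UMIs in the converted libraries, so the sizes of their ratios are limited by depth. No paired analysis was possible because each population has 1 library.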
